A study of Danio rerio with 6 samples.

Results

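Axon guidance genes encode the secreted cues that steer growing axons and the receptors that read them. They were taken from the deposited count table as every gene whose symbol starts with a name of the class 3 to 7 semaphorin, plexin, neuropilin, Slit, Robo, netrin or Unc5 families, or with *neo1*, together with *dcc* itself. This gave 45 genes of the 13466 in the table, and all 45 passed the filter on low counts. Genes of these families without a row under their symbol, among them *unc5a*, *robo4* and *sema3fb*, could not be assessed from these counts. By in situ hybridization, the study found *sema3fb* still expressed in the hindbrain of *hoxb1b* mutants. There were 18 secreted ligands (10 class 3 semaphorins, 4 Slits and 4 netrins), 9 membrane-bound semaphorins and 17 receptors. The remaining gene, *unc50*, shares only the first letters of its name with the *unc5* receptors and encodes an unrelated membrane protein. RNA-seq was carried out on whole wildtype zebrafish embryos and on embryos homozygous for the *um197* allele of *hoxb1b* (hoxb1b-/-), all at 18hpf. Chorion and yolk were removed from both genotypes, RNA was taken from pools of embryos, and 3 libraries were made for each genotype. The gene *hoxb1b* encodes a transcription factor of the first Hox paralog group that acts in the hindbrain. The comparison gives the transcripts that differ between its mutants and wildtype. It is not stated whether the wildtype embryos were siblings of the mutants, so genotype cannot be told apart from clutch or line.

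Each cue works through its own receptors. Slits bind Robo receptors and mostly repel axons, for instance at the midline. Class 3 semaphorins are secreted and bind neuropilins, which hold the ligand while plexins of the A class carry the signal into the cell, whereas Sema3E can bind Plexin D1 directly. Netrins attract axons through Dcc and repel them through Unc5 receptors. Several of these genes also guide blood vessels, migrating neurons and neural crest cells, so that in a whole embryo their transcripts come from many tissues.

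The libraries held 19139322 to 29146812 counts in total, and the guidance genes made up between 0.179% and 0.180% of the counts in wildtype and between 0.191% and 0.196% of those in mutant libraries. These are shares of total counts before normalization. They also depend on the counts of all other genes and are not read as a rise of the group. Expression is given as CPM, in which counts were divided by the library size after edgeR's TMM normalization and scaled to a fixed total. CPM is not divided by transcript length, so levels of different genes are not compared. Log2 fold changes (log2FC) are mutant over wildtype and have a standard error (SE) from the fit. A gene was called changed at a Benjamini-Hochberg adjusted p under 0.05 from edgeR's quasi-likelihood test over all 12471 tested genes, and differentially expressed if it also changed more than 2-fold. Libraries of one genotype were very alike, with a coefficient of variation of 1.85% beyond counting noise. It is not stated whether they came from separate pools, so the p-values measure only the spread between these libraries, which may be technical. Transcripts of *hoxb1b* itself were not lower in the mutants but higher (69.1 ± 2.37 CPM in wildtype and 84.4 ± 0.787 CPM in mutants, mean ± SD, n = 3). The log2FC was 0.29 (SE 0.03, edgeR adjusted p = 8.71e-09), so that the count of *hoxb1b* gives no check of the genotype by loss of transcript. Tissue markers in the table (neurons, floor plate and notochord, endothelium, skeletal muscle, neural crest, tailbud and hindbrain segments) were all detected in both genotypes. The table held 17 of 18 listed neuronal markers and 10 of 12 of floor plate and notochord. It held 12 of 13 of endothelium, 15 of 18 of skeletal muscle and all of the other lists.

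Guidance genes changed in *hoxb1b* mutants no more often than genes at large, with 18 of the 45 not passing the test. The 27 that passed the adjusted p (60.0%) stand against 66.2% of all tested genes, so the share was near the background and is no result about guidance genes as a group. Of the 27, 17 were higher and 10 lower in the mutants, where 32.6% of all tested genes were higher and 33.6% lower. Only *sema7a* (higher) also passed the 2-fold criterion, and 0 guidance genes fell more than 2-fold, with edgeR or with DESeq2, and at an unadjusted p under 0.05 as well. Among all tested genes 8.36% passed both criteria (1.70% higher and 6.66% lower). With a limit of 1.5-fold, 2 guidance genes were higher (*sema7a* and *sema3ab*) and 2 lower (*sema5a* and *slit1b*), where 5.08% and 13.5% of all tested genes were. The median log2 fold change was 0.03 for the guidance genes and -0.0034 for all tested genes. *unc50*, which is counted among the 45 but is no guidance gene, did not pass the test (log2FC 0.03, edgeR adjusted p = 0.654). Without it, 61.4% of 44 genes passed and the median was 0.0361. The histogram of fold changes shows all guidance genes but *sema7a* inside the 2-fold lines.

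**Figure D1:**
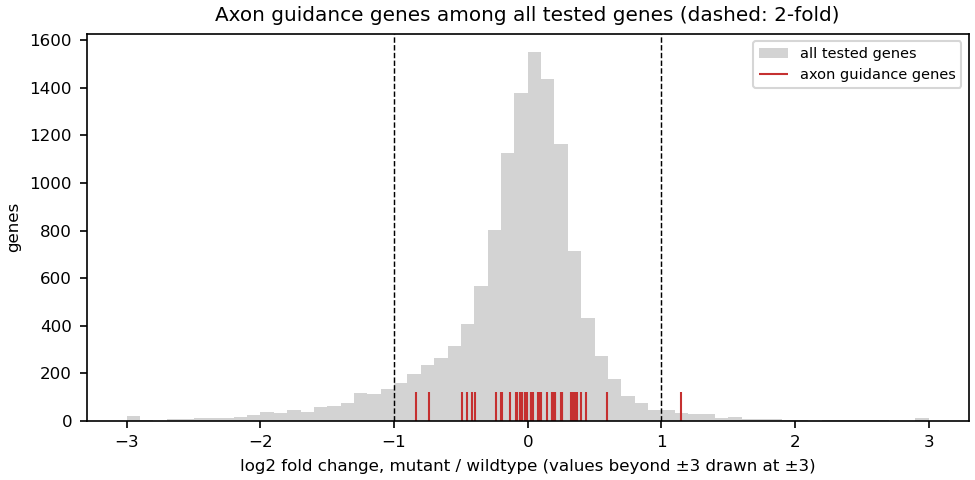
Histogram of the log2 fold change of mutant over wildtype for all 12471 tested genes (grey, number of genes per bin) with the 45 axon guidance genes as red ticks. The guidance genes lie between -0.83 (*sema5a*) and 1.14 (*sema7a*), and only *sema7a* lies beyond the dashed lines at 2-fold.

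The CPM of the 3 mutant libraries all lay above those of the 3 wildtype libraries for 16 guidance genes and all below for 11, against 33.7% and 34.5% of all tested genes, and they overlapped for 18. Non-overlapping genes were thus 60.0% of the guidance genes and 68.1% of all tested genes. By role, 8 of the 18 secreted ligands were higher, 5 were lower and 5 did not pass the test. The shares called over all tested genes were 32.6% higher and 33.6% lower. Of the 9 membrane semaphorins 3 were higher and 2 lower. The 3 higher were *sema7a*, with low counts, and *sema6d* and *sema6dl*, which RefSeq lists as the same gene but are counted separately. Of the 17 receptors 6 were higher and 3 lower. As whole embryos were sequenced, fewer cells of a type and less RNA per cell cannot be told apart.

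**Figure D2:**
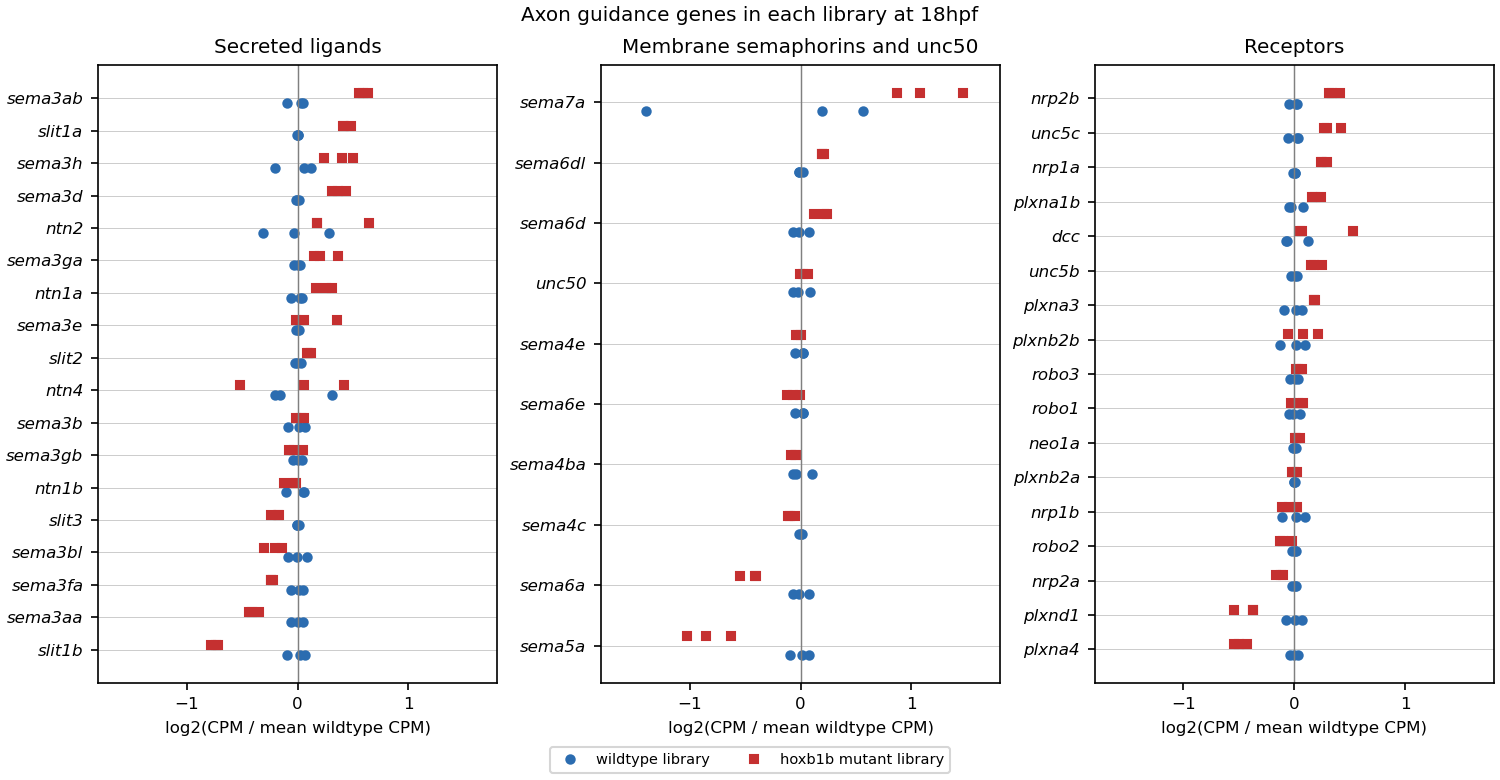
CPM of each guidance gene in each of the 6 libraries, as log2 of the ratio to the mean of the wildtype libraries (blue circles wildtype, red squares *hoxb1b* mutant, 3 libraries each), with secreted ligands, membrane semaphorins with *unc50*, and receptors in separate panels ordered by fold change. Both genotypes lie close together for most genes, and the mutant libraries of *slit1b* and *sema3ab* lie apart from the wildtype libraries in opposite directions.

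Among the Slits, all 4 ligand genes changed, in opposite directions, while none of the 3 Robo receptor genes passed the test. The share that passed over all tested genes was 66.2%, and 4 and 3 genes are too few to compare with it. *slit1a* and *slit1b* are duplicates of the single Slit1 gene of mammals. *slit1a* stood at 59.7, 59.3 and 59.4 CPM in the wildtype and at 78.9, 83.2 and 79.5 CPM in the mutant libraries. The wildtype libraries were almost identical and all mutant libraries were higher, a log2FC of 0.44 (SE 0.03, edgeR adjusted p = 2.13e-12). *slit1b* stood at 43.4, 47.1 and 48.7 CPM in the wildtype and at 27.0, 28.2 and 27.9 CPM in the mutant libraries. Every mutant library was well below every wildtype library, a log2FC of -0.74 (SE 0.05, edgeR adjusted p = 2.89e-14), or 1.67-fold lower. Of all tested genes, 10.6% had a lower fold change than *slit1b*.

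The other Slits changed less. *slit2* went from 65.4, 63.1 and 63.9 CPM to 69.9, 68.4 and 68.2 CPM. This rise was 1.07-fold, yet the libraries did not overlap (log2FC 0.10, SE 0.03, edgeR adjusted p = 0.00956). *slit3* fell from 119 ± 1.01 to 104 ± 2.70 CPM (mean ± SD, n = 3), with a log2FC of -0.19 (SE 0.03, edgeR adjusted p = 9.82e-07). The summed CPM of the 4 Slits lay between 287 and 292 in wildtype and between 277 and 286 in mutant libraries, a log2 ratio of -0.04.

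The Robo receptors stayed close to their wildtype levels. *robo3*, which controls the crossing of the midline in vertebrates, stood at 180, 186 and 190 CPM in wildtype and at 187, 194 and 189 CPM in mutant libraries. The genotypes overlapped, and the log2 fold change was 0.04 with a 95% interval of -0.02 to 0.09. *robo1* gave 0.03 (95% interval -0.04 to 0.11). *robo2*, the receptor that guides retinal axons and is mutated in *astray*, gave -0.09 (95% interval -0.21 to 0.03). The adjusted p from edgeR was 0.403, 0.203 and 0.200 for *robo1*, *robo2* and *robo3*, and 0 of the 3 passed with DESeq2 or at an unadjusted p under 0.05. With total counts in place of TMM, *robo1* and *robo3* both gave 0.08 and passed (adjusted p = 0.0475 and 0.00515 from edgeR).

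Of the 10 class 3 semaphorins, 4 were higher, 3 lower and 3 did not pass the test. Those that passed were 70% of the family, near the 66.2% of all tested genes (32.6% higher and 33.6% lower). The duplicates of Sema3A, the ligand best known for collapsing growth cones, moved apart. *sema3aa* stood at 81.7, 75.8 and 78.8 CPM in wildtype and at 59.2, 58.1 and 61.9 CPM in mutant libraries. Each mutant library was lower than each wildtype library, with a log2FC of -0.40 (SE 0.04, edgeR adjusted p = 8.58e-11). *sema3ab* stood at 25.3, 25.6 and 23.2 CPM in wildtype and at 36.3, 38.5 and 37.2 CPM in mutant libraries. It was the secreted ligand with the largest rise, 1.51-fold, with a log2FC of 0.59 (SE 0.05, edgeR adjusted p = 8.50e-12). A higher fold change than that of *sema3ab* was found in 5.08% of all tested genes.

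*sema3d*, which in zebrafish acts on axons and on migrating neural crest cells, also rose. Its CPM was 43.7, 44.1 and 44.7 in wildtype and 59.7, 56.9 and 54.7 in mutant libraries, without overlap (log2FC 0.37, SE 0.04, edgeR adjusted p = 2.62e-09). *sema3h* rose by 0.40 (edgeR adjusted p = 0.00364) from a low level, 4.14 ± 0.490 to 5.41 ± 0.486 CPM (mean ± SD, n = 3). *sema3ga* rose by 0.25 (edgeR adjusted p = 0.00642), and it missed the limit without mutant replicate 3 (edgeR adjusted p = 0.0873). *sema3fa* had a log2 fold change of -0.24 (edgeR adjusted p = 0.00141) and *sema3bl* one of -0.20 (edgeR adjusted p = 0.0117). The call of *sema3bl* was lost without wildtype replicate 2 (edgeR adjusted p = 0.0771) and without mutant replicate 1 (edgeR adjusted p = 0.0540), and with DESeq2 (adjusted p = 0.0653). *sema3b* (0.02, 95% interval -0.07 to 0.12), *sema3gb* (-0.02, 95% interval -0.13 to 0.08) and *sema3e* did not pass the test. Summed over the family, class 3 semaphorins held between 261 and 266 CPM in wildtype and between 268 and 272 CPM in mutant libraries, a log2 ratio of 0.03.

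The receptors of class 3 semaphorins also changed in both directions. Of the 4 neuropilins, the co-receptors that bind the ligand, *nrp1a* and *nrp2b* rose, *nrp2a* fell and *nrp1b* did not pass the test. Those that passed were 75% of the 4 genes, where 66.2% of all tested genes passed. *nrp2b* stood at 116, 117 and 111 CPM in wildtype and at 146, 153 and 143 CPM in mutant libraries. All mutant libraries were higher, with the largest rise among the receptors, a log2FC of 0.35 (SE 0.03, edgeR adjusted p = 2.34e-11). Its duplicate *nrp2a* went from 86.0, 86.0 and 84.0 CPM to 79.5, 78.4 and 76.0 CPM. Here all mutant libraries were lower, by a small amount (log2FC -0.13, SE 0.03, edgeR adjusted p = 4.58e-04). *nrp1a* rose from 73.7 ± 0.636 to 88.3 ± 1.70 CPM (mean ± SD, n = 3), with a log2FC of 0.26 (SE 0.03, edgeR adjusted p = 2.57e-08). *nrp1b* was at 36.6 ± 2.62 and 35.5 ± 1.67 CPM (mean ± SD, n = 3) with overlapping libraries.

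Plexins of the A class, which signal together with neuropilins, split as well. *plxna4* stood at 10.1, 10.4 and 9.90 CPM in wildtype and at 6.95, 7.54 and 7.16 CPM in mutant libraries. It had the lowest fold change of all the receptors, -0.49 on the log2 scale (SE 0.08, edgeR adjusted p = 6.46e-06), and no libraries overlapped. *plxna1b* and *plxna3* rose by 0.20 (edgeR adjusted p = 5.02e-04) and 0.19 (edgeR adjusted p = 6.55e-05). *plxna3* keeps motor axons on their path out of the spinal cord and is mutated in the zebrafish line *sidetracked*. *plxnb2a* and *plxnb2b* did not pass the test, with log2 fold changes of -0.0021 and 0.08.

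*plxnd1*, the receptor of Sema3E in endothelial cells and the gene mutated in *out of bounds*, fell. Its CPM was 17.5, 18.5 and 19.3 in wildtype and 12.7, 14.3 and 14.2 in mutant libraries, without overlap, a log2FC of -0.42 (SE 0.06, edgeR adjusted p = 2.22e-06). Its ligand gene *sema3e* stood at 9.60, 9.48 and 9.69 CPM in wildtype and at 9.47, 12.3 and 9.96 CPM in mutant libraries. Only mutant replicate 2 was clearly higher, and *sema3e* did not pass the test (log2 fold change 0.14, 95% interval -0.04 to 0.32). Of 12 endothelial marker genes, 5 were lower and 3 higher in the mutants, against 33.6% and 32.6% of all tested genes. The summed level of these markers was 296 to 300 CPM in wildtype and 295 to 311 CPM in mutant libraries. Those lower were *pecam1*, *tek*, *cdh5*, *clec14a* and *kdrl* (log2FC -2.10 to -0.39), those higher were *kdr*, *lmo2* and *etv2* (0.46 to 0.58), and *fli1a*, *erg*, *egfl7* and *sox7* did not pass the test. The part of the endothelium in the change of *plxnd1* was not tested. Counts of *plxnd1* were fractional in every library, as arises where reads are divided between sequences.

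**Figure D3:**
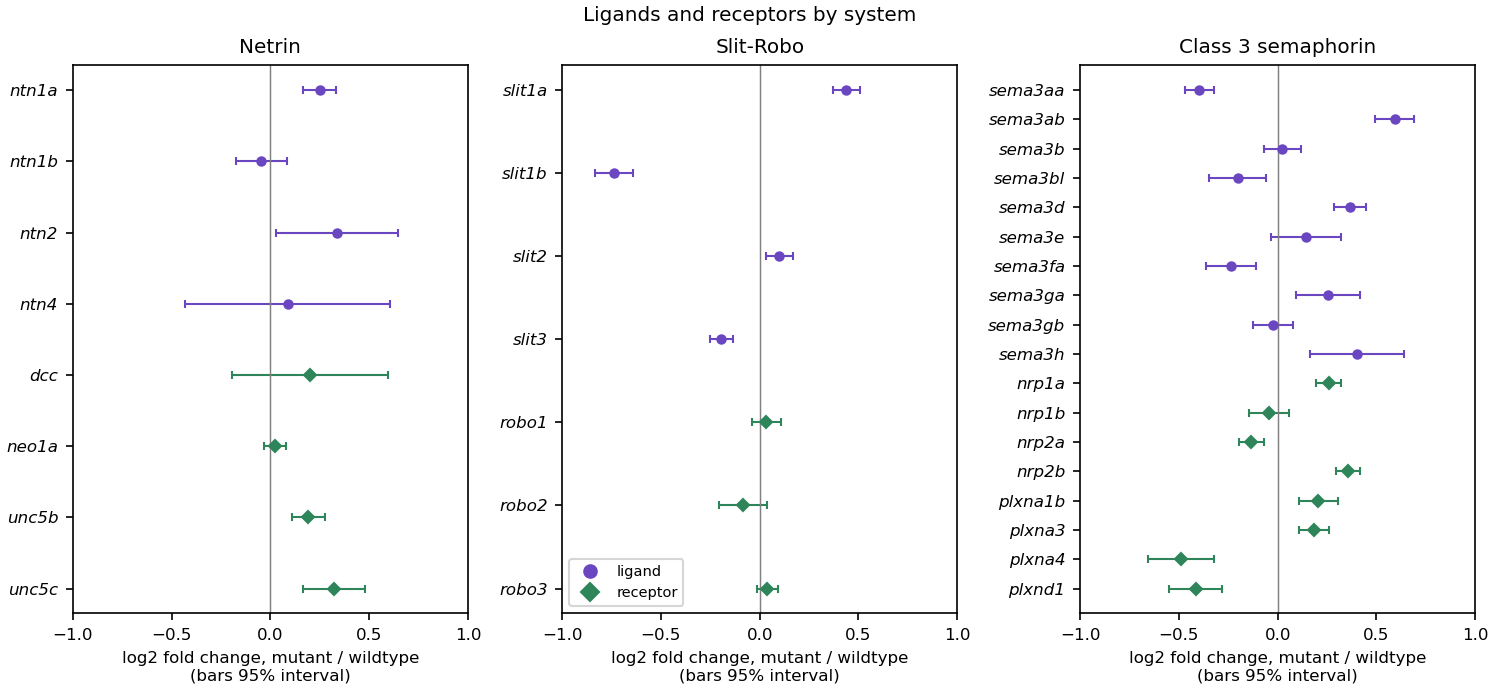
Log2 fold change of mutant over wildtype with its 95% interval for ligands (purple circles) and receptors (green diamonds) of the netrin, Slit-Robo and class 3 semaphorin systems, from edgeR's fit to 3 libraries of each genotype. The 4 Slit ligands lie on both sides of 0 and the intervals of the 3 Robo receptors include 0, while ligands and receptors of class 3 semaphorins spread from -0.49 (*plxna4*) to 0.59 (*sema3ab*).

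The membrane-bound semaphorins held both extremes among the guidance genes. *sema5a*, a transmembrane semaphorin with thrombospondin repeats, stood at 10.2, 9.48 and 10.6 CPM in wildtype and at 6.54, 4.95 and 5.60 CPM in mutant libraries. This was the largest fall of the 45 genes, 1.78-fold, with all mutant libraries below the wildtype ones (log2FC -0.83, SE 0.10, edgeR adjusted p = 1.07e-08). Leaving out single libraries gave values of -0.92 to -0.75. *sema7a*, which encodes a semaphorin held in the membrane by a lipid anchor, had counts of 4, 15 and 10 in wildtype and 24, 19 and 28 in mutant libraries. It was the guidance gene with the fewest counts, and it was 2.21-fold higher in the mutants (log2FC 1.14, SE 0.33, edgeR adjusted p = 0.00371). The call rests on single libraries. Without wildtype replicate 1 the log2 fold change of *sema7a* was 0.73 (edgeR adjusted p = 0.0536), and without mutant replicate 1 it was 0.9991, just short of 2-fold.

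Class 6 semaphorins, which bind A plexins without neuropilins, changed in both directions. *sema6a* fell from 27.6 ± 1.37 to 20.2 ± 1.15 CPM (mean ± SD, n = 3), with a log2FC of -0.45 (SE 0.05, edgeR adjusted p = 3.40e-08). *sema6dl* rose by 0.20 (edgeR adjusted p = 2.97e-07) and *sema6d* by 0.18 (edgeR adjusted p = 0.00643). RefSeq lists *sema6dl* as a synonym of *sema6d*, and counts of *sema6d* were fractional in all 6 libraries, so the division of reads between these entries is uncertain. *sema6e* did not pass the test (log2FC -0.06, edgeR adjusted p = 0.466). For class 4, 0 of the 3 genes (*sema4ba*, *sema4c* and *sema4e*) passed with edgeR, with DESeq2 or at an unadjusted p under 0.05, and their log2 fold changes lay between -0.08 and -0.02 (for *sema4e*, 0.02 with total counts in place of TMM).

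Among the netrins 2 of 4 genes passed the test, as did the 2 Unc5 receptors in the count table, while *dcc* and *neo1a* did not. The genes that passed were all higher, and the call of *ntn2* was lost in 7 of 14 alternatives. Over all tested genes 66.2% passed, 32.6% higher and 33.6% lower. The netrins and Unc5 receptors are too few to compare with these shares. The netrin receptor gene *dscama*, outside these families, was lower (log2FC -0.85, edgeR adjusted p = 1.93e-07). *ntn1a*, one of the duplicates of Netrin1 and a cue from the floor plate, stood at 43.1, 45.7 and 46.3 CPM in wildtype and at 50.5, 55.7 and 53.8 CPM in mutant libraries. The genotypes did not overlap (log2FC 0.25, SE 0.04, edgeR adjusted p = 5.05e-06). Its duplicate *ntn1b* stood at 15.1, 16.8 and 16.9 CPM in wildtype and at 15.0, 16.0 and 16.1 CPM in mutant libraries, which overlapped (log2 fold change -0.05, 95% interval -0.18 to 0.09). *ntn2* was just within the limit, with 62, 73 and 78 counts in wildtype and 100, 86 and 110 counts in mutant libraries (log2FC 0.34, SE 0.15, edgeR adjusted p = 0.0490). Its CPM overlapped between the genotypes, and its call was lost without wildtype replicate 1 (0.20, edgeR adjusted p = 0.290), without wildtype replicate 2 (0.33, edgeR adjusted p = 0.104) and without mutant replicate 1 (0.19, edgeR adjusted p = 0.286). It was also lost with DESeq2 (adjusted p = 0.125). *ntn4*, a netrin of basement membranes, had 14 to 41 counts and did not pass the test.

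Both Unc5 receptors in the count table, which turn the response to netrin into repulsion, rose. RefSeq lists *unc5c* as a synonym of *unc5cb*. *unc5b* went from 36.9, 37.8 and 38.2 CPM to 42.5, 44.7 and 41.9 CPM (log2FC 0.19, SE 0.04, edgeR adjusted p = 1.75e-04). *unc5c* went from 9.39, 9.48 and 8.87 CPM to 12.4, 11.4 and 11.1 CPM (log2FC 0.32, SE 0.08, edgeR adjusted p = 5.68e-04). All mutant libraries were higher for both genes. *dcc*, the receptor for attraction, had counts of 40, 34 and 29 in wildtype and of 44, 38 and 48.1 in mutant libraries. At this depth no difference was detectable, and its 95% interval ran from -0.19 to 0.60 (edgeR adjusted p = 0.366). *neo1a*, a relative of Dcc that also binds repulsive guidance molecules, gave 0.02 with a narrow interval of -0.03 to 0.08, and 0.07 (edgeR adjusted p = 0.0232) with total counts in place of TMM. Of 10 markers of floor plate and notochord, 5 were higher and 3 lower, against 32.6% and 33.6% of all tested genes. Those higher were *shha*, *foxa2*, *foxj1a*, *noto* and *col8a1a* (log2FC 0.17 to 1.29), those lower were *spon1a*, *col2a1a* and *spon1b* (-1.09 to -0.08), and *shhb* and *arxa* did not pass the test. The summed level of the list lay between 2043 and 2088 CPM in wildtype and between 1650 and 1699 CPM in mutant libraries. *col2a1a* held the largest part of it and went from 1478 to 1011 CPM (means of 3 libraries), so the sum mostly follows this gene. The part of floor plate and notochord in the change of *ntn1a* was not tested.

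These genes include 7 pairs of duplicates, in 6 of which the balance between the members did not overlap between the genotypes. Over all 1249 pairs of tested genes whose symbols differ only in a final a or b, 66.6% did not overlap, and the median absolute shift of the log2 ratio was 0.30. The ratio of the members was taken within each library, where it does not depend on the scaling of libraries. The log2 ratio of *slit1a* to *slit1b* was 0.46, 0.33 and 0.29 in wildtype and 1.55, 1.56 and 1.51 in mutant libraries. The balance thus shifted to *slit1a* by 1.18 on the log2 scale. The log2 ratio of *sema3aa* to *sema3ab* was 1.69, 1.56 and 1.77 in wildtype and 0.71, 0.59 and 0.73 in mutant libraries, a shift of -1.00. The log2 ratio of *nrp2a* to *nrp2b* was -0.43, -0.45 and -0.41 in wildtype and -0.87, -0.97 and -0.91 in mutant libraries, a shift of -0.49. In these 3 pairs each member passed the test in the direction opposite to its partner, as did 16.5% of the 1249 pairs. A larger absolute shift was found in 6.57% of those pairs for *slit1a* and *slit1b*, in 10.5% for *sema3aa* and *sema3ab* and in 32.4% for *nrp2a* and *nrp2b*.

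**Figure D4:**
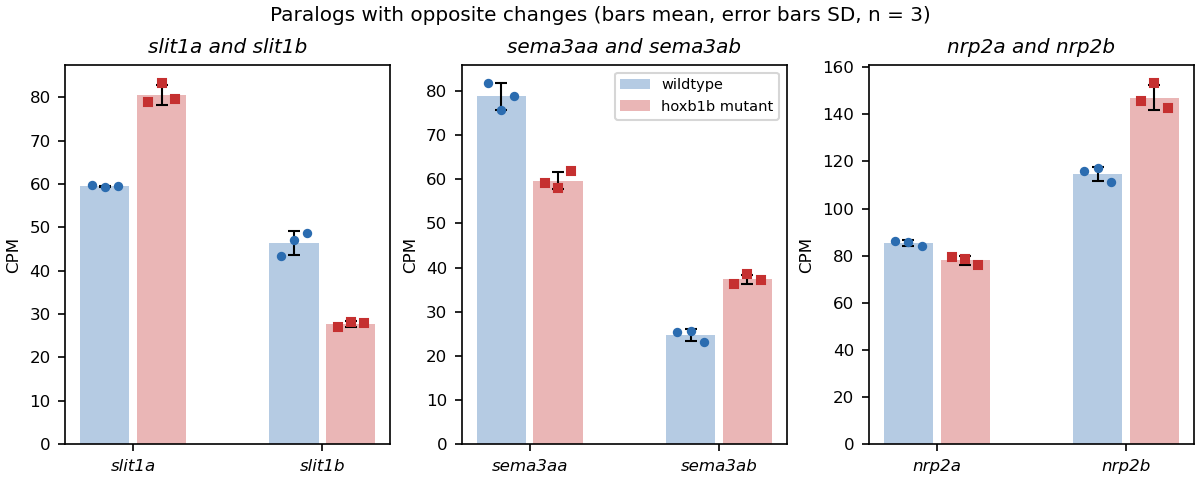
CPM of *slit1a* and *slit1b*, *sema3aa* and *sema3ab*, and *nrp2a* and *nrp2b* in wildtype (blue) and *hoxb1b* mutant (red) libraries, with bars for the mean, error bars for the SD (n = 3) and points for the libraries. *slit1b*, *sema3aa* and *nrp2a* are lower and their partners higher in every mutant library.

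In *nrp1a* and *nrp1b*, *ntn1a* and *ntn1b*, and *sema3ga* and *sema3gb*, only the first member passed the test, and the log2 ratio shifted by 0.30, 0.30 and 0.26. The libraries of the genotypes did not overlap in the ratio for these pairs either. The remaining pair, *plxnb2a* and *plxnb2b*, overlapped and shifted by -0.08. Each of the 6 non-overlapping pairs gave an exact permutation p of 0.1 (two-sided, 3 against 3 libraries), the smallest that this design allows, and 0.117 after Benjamini-Hochberg adjustment over the 7 pairs, so that none passes a limit of 0.05. The exact permutation p was 0.4 for *plxnb2a* and *plxnb2b*. A count is fractional where reads were divided between sequences. Counts were whole in every library for *slit1b*, fractional in 1 library for *sema3aa* and *nrp2a*, in 2 for *slit1a* and *nrp2b*, and in 3 for *sema3ab*. They were fractional in all 6 libraries for *plxnb2a*, which RefSeq lists as a synonym of *plxnb2a.1*, and whole for *plxnb2b*. In the other pairs they were fractional in 4 libraries for *ntn1a*, in 1 for *ntn1b*, *nrp1a* and *nrp1b*, and whole for *sema3ga* and *sema3gb*.

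**Figure D5:**
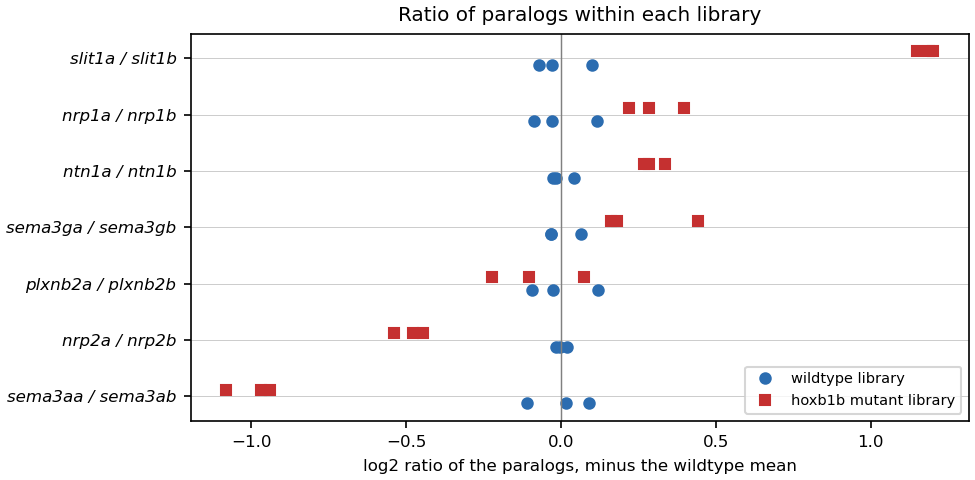
Log2 ratio of the 7 pairs of duplicates within each library, minus the mean of the wildtype libraries (blue circles wildtype, red squares *hoxb1b* mutant, 3 libraries each). The genotypes are apart in 6 pairs, with the widest shifts for *slit1a* over *slit1b* (1.18) and *sema3aa* over *sema3ab* (-1.00), and overlap for *plxnb2a* over *plxnb2b*.

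Beyond the ligands and receptors, 33 co-receptors and other cues of the same systems were listed, and the 24 in the count table were tested. Against 32.6% and 33.6% of all tested genes, 8 of them were higher and 12 lower. Those past 2-fold were *draxin*, a secreted inhibitor of axon growth that binds Dcc, and *gpc1b*, a glypican that can bind Slits. Past both criteria, 1.70% of all tested genes were higher and 6.66% lower. *draxin* rose from 19.5 to 42.3 CPM (means of 3 libraries), a log2FC of 1.12 (SE 0.05, edgeR adjusted p = 2.40e-17), and *gpc1b* fell from 9.09 to 4.09 CPM, a log2FC of -1.15 (SE 0.10, edgeR adjusted p = 3.53e-11). The netrin receptor gene *dscama* fell by 0.85 (edgeR adjusted p = 1.93e-07). Of the ligands of neogenin, *rgma* rose by 0.31 (edgeR adjusted p = 5.24e-11), *rgmb* fell by 0.13 (edgeR adjusted p = 0.00742) and *rgmd* did not pass the test (log2FC -0.01). The median log2 fold change of this list was -0.12.

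Intracellular effectors pass the signals of these receptors to the cytoskeleton. Of 76 listed, 52 were in the count table and 51 were tested. Of these 51, 14 were higher, 17 lower and 20 did not pass the test, with a median log2 fold change of -0.0096. Among all tested genes 66.2% passed (32.6% higher and 33.6% lower). The 31 effectors that passed were near that share and are no result about effectors as a group. Past both criteria, 3 of the 51 were lower and 0 higher, where 6.66% of all tested genes were lower and 1.70% higher. Their direction is thus no result about effectors as a group either. The 3 were *evlb* (-1.12, edgeR adjusted p = 2.46e-08) and *cap2* (-1.01, edgeR adjusted p = 1.15e-15), which act on actin, and *crmp1* (-1.00, edgeR adjusted p = 5.28e-05), of the collapsin response mediators that act downstream of Sema3A. Of its relatives, *dpysl2b*, *dpysl3* and *dpysl5b* fell by 0.43, 0.41 and 0.35 (adjusted p = 2.65e-12, 2.06e-11 and 7.67e-04 from edgeR), and *dpysl4* and *dpysl5a* did not pass the test. The largest rise was in *ablim1b*, an actin-binding relative of a *C. elegans* guidance gene (0.45, edgeR adjusted p = 1.80e-05).

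Markers of several tissues also differed between the genotypes, where 32.6% of all tested genes were higher and 33.6% lower. Of 17 neuronal markers, 14 were lower and 1 higher in the mutants, and their summed level was 1013 to 1029 CPM in wildtype and 796 to 802 CPM in mutant libraries (78.4% of the wildtype mean). *tubb5* held the largest part of this sum and went from 350 to 313 CPM (means of 3 libraries). The median log2 fold change of the neuronal list was -0.60. All 15 skeletal muscle markers in the count table were lower, with 38.1% of the wildtype sum. Of 15 tailbud and presomitic mesoderm markers 14 were higher, with 218% of the wildtype sum. Of 9 neural crest markers, 3 were lower (*crestin*, *mitfa* and *ltk*) and 1 higher (*tfap2a*), with 70.7% of the wildtype sum. That sum was 706 to 710 CPM in wildtype and 494 to 504 CPM in mutant libraries. *crestin* alone went from 366 to 151 CPM (means of the libraries). *sox10*, *foxd3*, *snai1b*, *sox9b* and *ets1* did not pass the test, so the lower sum does not describe the list as a whole. Of 14 markers of hindbrain segments, 9 were higher and 2 lower, with 110% of the wildtype sum. No marker was at 0 in either genotype. The part of these tissues in the changes of *slit1b*, *sema5a*, *sema3ab* and the other guidance genes was not tested. Nor was a difference in developmental stage between the genotypes.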

How the data were processed

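The authors deposited estimated counts (expected counts) of reads per gene and library, not normalized, for 13466 genes. The methods name the Dolphin web interface, and the submitters' processing notes name FastQC, RSEM 1.2.28, DESeq2 and the builds GRCz10 and danRer7, without their roles. The deposited table also holds the authors' own comparison (an adjusted p-value, a log2 fold change and the same change as a ratio), which was not used. Genotype and replicate number came from the sample titles.

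After rounding to whole numbers, counts were tested with edgeR 4.0.16 under R 4.3.3 (filterByExpr, TMM, glmQLFit and glmQLFTest with genotype as the only factor). The 2-fold criterion follows the study, and the adjusted p limit of 0.05 was added because each genotype had 3 libraries. Standard errors are the log2 fold change divided by the square root of F, and 95% intervals use the fit's degrees of freedom. They cover only the spread between these libraries. Alternatives were other scalings, other filters, DESeq2 1.42.0, unrounded counts, a replicate block, other limits and leaving out each library. The ratios of duplicates, and those of all 1249 pairs of symbols ending in a and b (3 more were left out for a count of 0), were added after seeing the data.

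Genes named were those past both criteria, those changed 1.5-fold or more, the largest rise and fall of each family, known ligand and receptor partners, and duplicates. All 45 guidance genes are named, also those that this rule does not cover (among them *sema3h*, *sema3fa*, *sema3bl*, *sema3b*, *sema4ba*, *sema6d*, *sema6e* and *ntn4*). Beyond the guidance genes, those named outside the rule (*dscama*, *rgma*, *rgmb*, *rgmd*, the *dpysl* genes and single tissue markers) were chosen after their values were seen. The members and lists were chosen with earlier results of these data known. The gene *cntn2* is in both the neuronal and the co-receptor list. Of the 45 symbols, 41 matched a RefSeq symbol and 4 a synonym (GRCz12tu).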

Additional observations from a re-analysis of the deposited data

How the results depend on the processing

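Of the 45 guidance genes, 38 stayed on the same side of the adjusted p limit under every alternative fitted. The fold change took either sign over the alternatives for 8 genes, 0 of them called. These alternatives were other scalings and filters, DESeq2, unrounded counts, a replicate block and leaving out each library. The genes higher in the mutants numbered 15 to 20 and those lower 9 or 10, against 17 and 10. Calls were lost in at least 1 alternative for *ntn2*, *sema3bl*, *sema3ga* and *sema7a*, and gained with total counts for *neo1a*, *robo1* and *robo3*. The number past 2-fold and higher was 1 in the main analysis. Requiring 10 or more counts per library made it 0, because *sema7a* was then not tested, and leaving out single libraries gave 0 to 1 (0 without wildtype replicate 1 or mutant replicate 1). With a limit of 1.5-fold it was 2, and 2 were lower. The median log2 fold change of 0.03 was 0.0798 with total counts only, and ranged from 0.0174 to 0.0560 when single libraries were left out. Total counts moved the median of all tested genes from -0.0034 to 0.04. Left out in turn, libraries gave shifts in the log2 ratio of 1.14 to 1.23 for *slit1a* over *slit1b*, -1.05 to -0.95 for *sema3aa* over *sema3ab* and -0.51 to -0.46 for *nrp2a* over *nrp2b*. Libraries with the same number in their titles did not deviate together (correlations of -0.01 to 0.02 across genes). The deposited columns of the mutant libraries carry other numbers (Mut2, Mut3 and Mut4). Libraries that share a column number gave correlations of 0.04 and 0.06, and those with different title numbers -0.05 to 0.06. Whether libraries were paired is not stated and cannot be decided from these values. The replicate block, by the numbers of the titles, left 16 genes higher and 10 lower, with *ntn2* lost (adjusted p = 0.0608 from edgeR). Low counts limit *sema7a*, *ntn4*, *dcc* and *ntn2*.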
